A study of Mus musculus with 2 samples.

Results

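*Il10*, the gene of the anti-inflammatory cytokine interleukin-10, and *eGFP*, the transcript of the green fluorescent protein that reports IL-10 in the mice used, are described here over single CD4+ T cells. They are 2 of the 28009 rows of both count tables, matched by their names. The tables hold 1 library from the small intestine and 1 from the spleen, made with the 10x Genomics Chromium platform from the polyA RNA of IL-10-producing (eGFP+) CD4+ T cells, Foxp3+ cells included. The mice, between 8 and 16 weeks of age, carried an IL-10 eGFP reporter and a Foxp3 mRFP reporter, a red protein that reports Foxp3. All had received anti-CD3, a T-cell activating antibody, in 2 injections of 15 µg, at day 0 and at day 2, with the cells taken 4 h later, so no untreated and no eGFP- cells are part of the comparison. The number of mice behind each library is not given in the sources used here.

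IL-10 is secreted by Foxp3+ regulatory T cells, by Foxp3- T regulatory type 1 (TR1) cells and by activated effector T cells. It acts through the IL-10 receptor and STAT3, mostly on myeloid cells, and restrains inflammation, above all in the intestine. In T cells the gene is switched on after stimulation of the T-cell receptor together with cytokines such as IL-27, and transcription factors such as c-Maf, Blimp-1 and AHR take part. A reporter of this kind marks cells that transcribe the locus, and fluorescence of the protein, not its RNA, was used to sort them. *Il10* (ENSMUSG00000016529) lies on the + strand of chromosome 1, from 131019845 to 131024974 in the GRCm38 annotation, with 5 exons. The last exon, from 131024176 to 131024974, holds the end of the coding sequence and a 3′ untranslated region of 709 bases. *eGFP* is a row added to the reference and has no place in the genome. Where it sits within the reporter allele, and which part of its sequence was used for counting, are not given in the sources used here.

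A count is a unique molecular identifier (UMI), that is, 1 captured RNA molecule. The intestinal library held 5693395 UMIs in 1474 barcodes and the splenic one 11103530 UMIs in 1738, and they shared 0 barcodes. After filters on quality and removal of cells in G2/M, 1277 intestinal cells with a median of 3696 UMIs and 1468 splenic cells with a median of 5398 UMIs were kept. Levels are given in CPM, the UMIs of a gene per 1000000 UMIs of the same cells. The limit that a count of 0 allows, 3 UMIs, was worth 0.596 CPM in the small intestine, against 0.328 CPM in the spleen. Because splenic cells had more UMIs, shares of cells were also compared after each cell had been thinned at random to 2094 UMIs, called equal depth from here on, which left 1149 intestinal and 1438 splenic cells and left out 128 and 30 shallower ones. With 1 library per tissue there was no test. Brackets hold exact 95% intervals (Poisson for levels, Clopper-Pearson for shares, Newcombe for differences of shares), which cover counting error only. Those of levels and ratios take each UMI as independent and leave out the differences between cells. They are too narrow where a few cells hold many UMIs of a gene.

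*Il10* was higher in the cells of the small intestine than in those of the spleen, by less than 2-fold. The intestinal cells held 3004 *Il10* UMIs, or 597 CPM (576 to 619), and the splenic cells 4352 UMIs, or 476 CPM (462 to 490). The log2 ratio of the small intestine over the spleen was 0.33 (0.26 to 0.40). Of the 5974 genes whose mean count reached 0.05 in both tissues, 8.47% were at least 2-fold higher and 7.65% at least 2-fold lower in the small intestine, with a median log2 ratio of 0.03. When cells with a *Cd8a* or *Cd8b1* UMI were left out, the log2 ratio was 0.49, and it was also 0.49 without cells that had a *Foxp3* UMI.

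A UMI of *Il10* was found in most of the sorted cells of either tissue. At the deposited depth these were 926 of 1277 intestinal cells, or 72.5% (70.0 to 74.9), and 952 of 1468 splenic cells, or 64.9% (62.3 to 67.3). At equal depth the shares were 60.5% (57.6 to 63.3) and 46.0% (43.4 to 48.6), a difference of 14.5 percentage points (10.7 to 18.3). At 4188 UMIs per cell, which only 436 intestinal and 1046 splenic cells reached, the shares were 79.1% and 62.8%. Within a tissue, the share followed depth. It went from 52.3% in the fifth of intestinal cells with the fewest UMIs to 81.6% in the fifth with the most, and from 42.2% to 82.3% in the spleen. The level in CPM, which takes depth into account, lay between 514 and 653 over the same groups of intestinal cells and between 338 and 524 over the splenic ones, lowest in the shallowest group of each tissue.

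**Figure D1:**
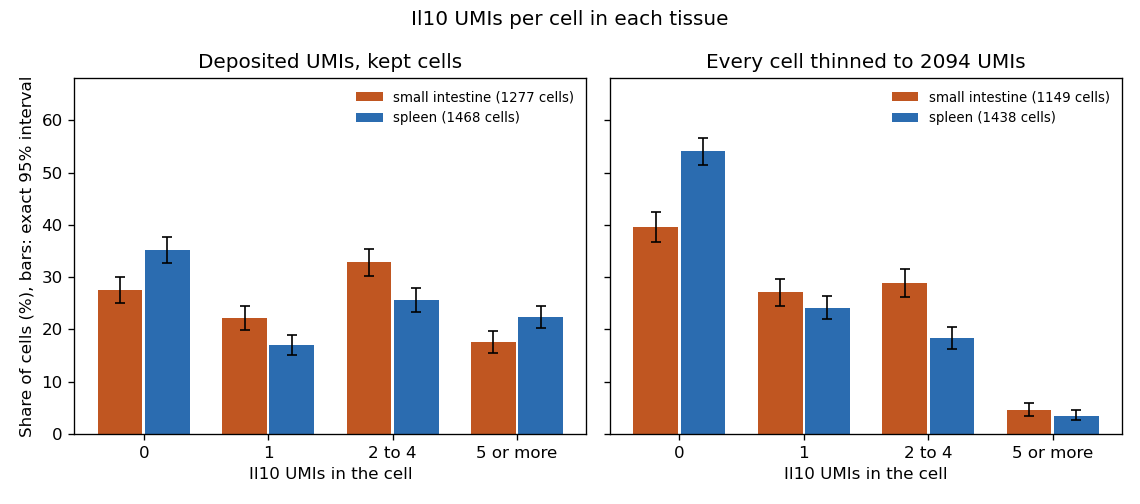
Share of kept cells (%, y axis) with 0, 1, 2 to 4 and 5 or more *Il10* UMIs (x axis) in the small intestine and spleen, at the deposited depth on the left and at 2094 UMIs per cell on the right, with exact 95% intervals. Cells with no *Il10* UMI were 27.5% in the small intestine, against 35.1% in the spleen at the deposited depth, and 39.5% and 54.0% at equal depth.

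*Il10* was spread less evenly over the splenic cells than over the intestinal ones. Of the intestinal cells 351 had 0 *Il10* UMIs, 283 had 1, 419 had 2 to 4 and 224 had 5 or more, and in the spleen these numbers were 516, 249, 375 and 328. The cells with 5 or more made up 17.5% of the intestinal cells and held 52.7% of the *Il10* UMIs. In the spleen they made up 22.3% of the cells and held 70.2% of the UMIs. The highest count in a cell was 20 in the small intestine, against 41 in the spleen, and the median was 2 and 1. The variance divided by the mean, which is 1 for pure counting error around 1 common level, was 3.05 in the small intestine, against 6.28 in the spleen at the deposited depth, and 1.75 and 2.30 at equal depth. The 10% of cells with the most *Il10* UMIs held 36.2% of them in the small intestine, against 47.3% in the spleen at equal depth. If all cells of a tissue had the same level, counting error at each cell's own depth would leave 13.6% of the intestinal and 10.3% of the splenic cells without an *Il10* UMI, against the 27.5% and 35.1% counted.

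*eGFP*, by contrast, was almost not captured. Over all barcodes it had 6 UMIs in 6 cells of the small intestine and 8 UMIs in 8 cells of the spleen, although every cell had been sorted on its fluorescence. Among the kept cells the share with an *eGFP* UMI was 0.470% (0.173 to 1.02) in the small intestine, against 0.477% (0.192 to 0.980) in the spleen. Its level was 1.19 CPM (0.438 to 2.60) and 0.765 CPM (0.308 to 1.58), and the log2 ratio of the small intestine over the spleen, 0.64 (-1.21 to 2.44), could not be told from 0 with so few UMIs. At equal depth, 2 of 1149 intestinal and 2 of 1438 splenic cells had an *eGFP* UMI. For comparison, the tables hold 10 more rows for reporters and tools. *eYFP*, *GFP*, *tdTomato*, *mCherry*, *Kaede*, *Cas9* and *Cre* had 0 UMIs in both tissues, *BFP* had 3 in the small intestine, against 2 in the spleen, and *TurboFP635* had 7 and 0. The mice are not said to carry either of the latter. The sequences behind the *eGFP*, *GFP* and *eYFP* rows are not given in the sources used here. Whether any reads matched more than 1 of these rows, and so went uncounted, was not tested. The *eGFP* count is therefore uncertain.

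The few *eGFP* UMIs lay mostly in cells with many *Il10* UMIs. The 6 intestinal cells with an *eGFP* UMI had 0, 2, 7, 7, 9 and 20 *Il10* UMIs, and the 8 splenic ones 0, 4, 6, 15, 16, 28, 29 and 41. Each of these cells had a single *eGFP* UMI, and the intestinal cell with 20 and the splenic cell with 41 *Il10* UMIs were the highest of their tissue. In 10 of the 14 cells there were thus 5 or more *Il10* UMIs. Among kept intestinal cells *eGFP* was found in 0.285% (0.00721 to 1.58) of those with 0 *Il10* UMIs and in 1.79% (0.489 to 4.51) of those with 5 or more. In the spleen these shares were 0.194% (0.00491 to 1.08) and 1.83% (0.674 to 3.94). Depth moved in the same direction. The cells with 5 or more *Il10* UMIs had a median of 4356.5 UMIs against 3313 with 0 in the small intestine, and 7791 against 4460 in the spleen. At equal depth 1 cell with an *eGFP* UMI was left in each of these groups, and the difference was 0.107 percentage points (-1.51 to 2.18) in the small intestine, against 0.104 (-0.855 to 1.52) in the spleen. With cells also grouped by their *Il10* UMIs at equal depth, the differences were 1.67 and 1.83 percentage points, again from single cells. Per UMI, a comparison added after the data had been seen that takes depth into account without thinning, *eGFP* had 3.66 CPM in intestinal cells with 5 or more *Il10* UMIs and 0.832 CPM in those with 0, from 4 UMIs and 1 UMI, a log2 ratio of 2.14 (-1.20 to 7.76). Splenic cells had 2.14 and 0.384 CPM, from 6 UMIs and 1 UMI, a log2 ratio of 2.48 (-0.56 to 8.002). Of the 6 and 7 *eGFP* UMIs in kept cells, 4 and 6 thus lay in the cells with 5 or more *Il10* UMIs, which held 21.7% and 30.6% of all UMIs. Both tissues had the higher level with more *Il10*, and both intervals include 0. After thinning, too few *eGFP* UMIs were left to show a difference of this size. *TurboFP635*, which the mice are not said to carry, had nearly the same levels as *eGFP* in kept intestinal cells. It had 0.832, 0, 0.585 and 2.74 CPM with 0, 1, 2 to 4 and 5 or more *Il10* UMIs, the last from 3 UMIs in 2 cells. The same values of *eGFP* were 0.832, 0, 0.585 and 3.66 CPM. In the spleen *TurboFP635* had 0 UMIs.

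The transcript of the second reporter was captured more often. *mRFP* had 10 UMIs in the small intestine, against 153 in the spleen over all barcodes, and *Foxp3* itself 40 and 605. Among kept splenic cells, *mRFP* was found in 20% (15.5 to 25.2) of the 280 cells with a *Foxp3* UMI and in 3.28% (2.35 to 4.46) of the 1188 without, with median depths of 7666 and 5048 UMIs. *eGFP* was found in 0.630% (0.232 to 1.37) of the 952 splenic cells with an *Il10* UMI and in 0.194% of the 516 without.

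**Figure D2:**
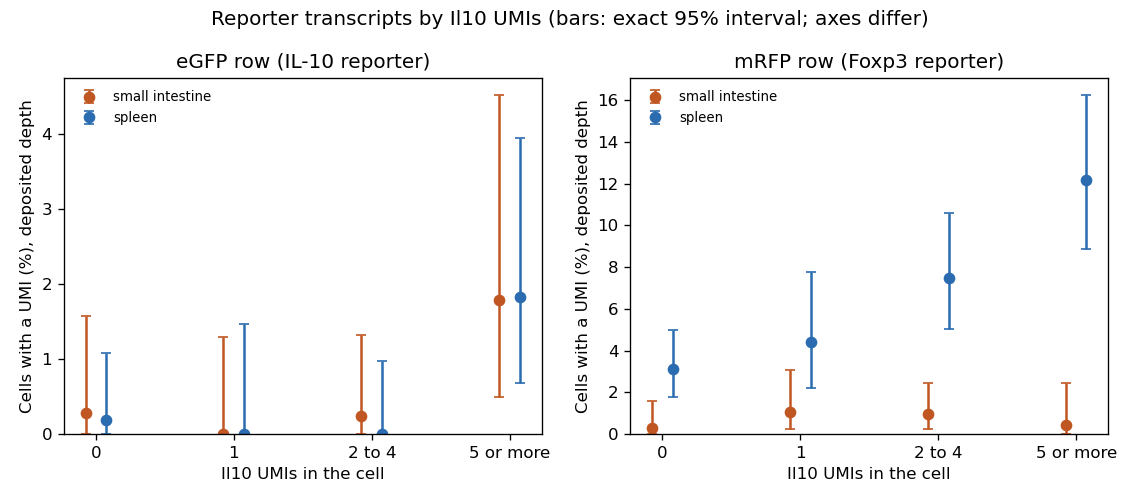
Share of kept cells with a UMI of *eGFP* (left) and *mRFP* (right), in % at the deposited depth, against the *Il10* UMIs of the cell, for the small intestine and spleen, with exact 95% intervals and different y axes. *eGFP* lies at or below 1.83% in all groups, and splenic *mRFP* goes from 3.10% to 12.2%. At equal depth, not shown, the splenic *mRFP* shares were 1.60%, 1.26%, 1.88% and 3.96%, from 8, 3, 7 and 13 cells.

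Groups of cells with like transcriptomes differed widely in *Il10*. Graph clusters were made in each tissue without *Il10* and *eGFP*, and are called by number and by the genes that lead them. Intestinal *Il10* was lowest in cluster 6 (*Gzma*, *Cd8a*, *Cd7*, *Cd8b1*, *Klrd1*), with 278 CPM (240 to 321), and next lowest in cluster 2 (*Gzma*, *Ccl5*, *Cd7*, *Amica1*, *Gzmb*), with 391 CPM (349 to 437). Cluster 5 (*Capg*, *Emb*, *Tmsb10*, *Smco4*, *Ptma*) had 579 CPM (524 to 637), cluster 3 (*Gzma*, *Tnfrsf4*, *Furin*, *Serpinb6b*, *Ctla4*) 665 CPM (608 to 725), cluster 4 (*Lag3*, *Ccl5*, *Tnfrsf4*, *Dusp2*, *Maf*) 733 CPM (671 to 799) and cluster 1 (*Gzma*, *Plac8*, *Ccl5*, *Gzmb*, *Tnfrsf4*) 772 CPM (726 to 820). From cluster 5 upwards the intervals of neighbours in this order overlapped, and those of clusters 2 and 6 overlapped with no other. The log2 ratio of the highest over the lowest cluster was 1.47 (1.25 to 1.70).

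The splenic clusters spanned a wider range. Cluster 3 (*Klf2*, *Pdcd4*, *Malat1*, *Tsc22d3*, *Ccr7*), led by genes of resting and recirculating T cells, had 84.3 CPM (66.9 to 105). Cluster 7 (*Ncl*, *Eif5a*, *Mif*, *Npm1*, *Set*), led in part by genes of ribosome and protein synthesis, had 110 CPM (89.4 to 134). Cluster 1 (*Tnfsf8*, *Malat1*, *Tbc1d4*, *Maf*, *Tcf7*) had 417 CPM (385 to 452) and cluster 6 (*Ccl5*, *Nkg7*, *Ccl4*, *Id2*, *Gzmb*), with genes of cytotoxic granules and chemokines, 525 CPM (476 to 577). The highest levels were those of cluster 4 (*Hmgb2*, *Stmn1*, *H2afz*, *Hmgn2*, *Ptma*) with 596 CPM (564 to 629), cluster 5 (*S100a6*, *Lgals1*, *Nkg7*, *Lgals3*, *S100a4*) with 631 CPM (586 to 679) and cluster 2 (*Tnfrsf9*, *Tnfrsf4*, *Ctla4*, *Tnfrsf18*, *Capg*) with 654 CPM (616 to 694). Cluster 4, the deepest with a median of 9700 UMIs, had 8006 CPM of proliferation genes, against at most 2498 CPM in the other splenic clusters. Clusters 2, 5 and 4 did not differ from their neighbours beyond their intervals, nor did clusters 6 and 4, or 7 and 3. The log2 ratio of the highest over the lowest was 2.96 (2.63 to 3.30).

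Low *Il10* went with low depth in some of these clusters. Splenic cluster 3 and intestinal cluster 2 were the shallowest of their tissues, with medians of 3886 and 2985 UMIs, whereas intestinal cluster 6 had a median of 4340 and splenic cluster 7 one of 7059, above those of all kept cells. The share of cells with an *Il10* UMI at equal depth was 18.9% (12.5 to 26.8) in splenic cluster 7, against 62.7% (56.5 to 68.7) in cluster 2 and 67.0% (59.6 to 73.9) in cluster 5. In splenic clusters 3 and 4 the shares were 15.96% (11.3 to 21.6) and 56.7% (49.8 to 63.4). The share was 36% (27.6 to 45.1) in cluster 6 and 69.2% (63.8 to 74.2) in cluster 1 of the small intestine. All cells had been sorted for the reporter, so no cell type that should lack *Il10* was at hand to measure free RNA. Clusters 3 and 7 had the lowest splenic levels, at 84.3 and 110 CPM, or 0.36 and 0.78 *Il10* UMIs per cell. How much of either was free RNA was not tested.

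**Figure D3:**
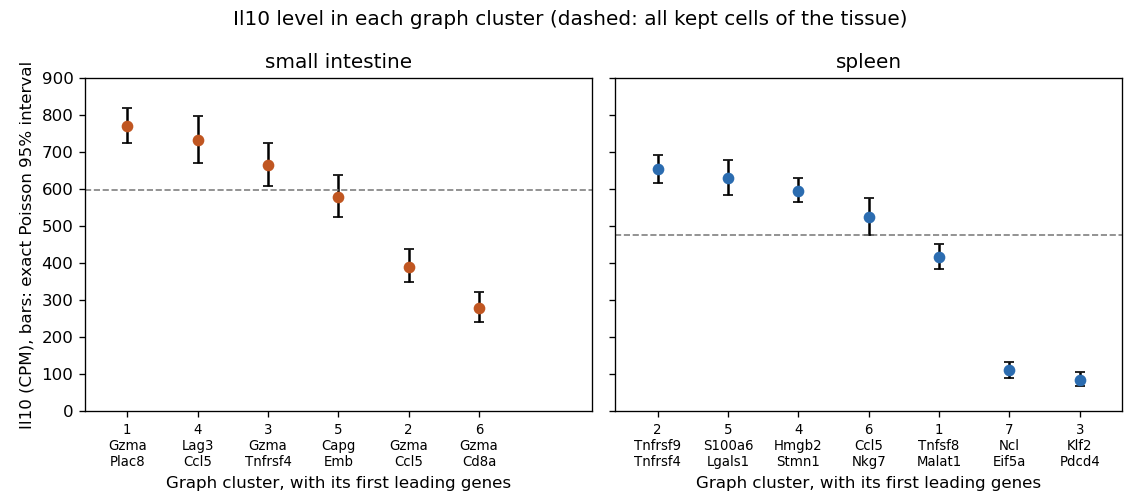
Level of *Il10* (CPM, y axis) in each graph cluster of the small intestine (left) and spleen (right), in falling order, with exact Poisson 95% intervals. The dashed lines are the levels over all kept cells, 597 and 476 CPM, and splenic clusters 7 and 3 lie apart at 110 and 84.3 CPM.

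*Foxp3*, the master regulator of regulatory T cells, went with more *Il10* in the spleen. The 280 splenic cells with a *Foxp3* UMI had 633 CPM of *Il10* (601 to 666) and the 1188 without had 422 CPM (407 to 438), a log2 ratio of 0.59 (0.49 to 0.68). At equal depth 59.9% (53.9 to 65.8) and 42.6% (39.8 to 45.5) of them had an *Il10* UMI. These cells were grouped by *Foxp3* at the deposited depth, where their medians were 7665.5 and 5047.5 UMIs. Thinning does not undo this difference in which cells were grouped. Only 28 intestinal cells had a *Foxp3* UMI, and their level of 703 CPM (575 to 851) was not separable from the 594 CPM (572 to 616) of the 1249 others, with a log2 ratio of 0.24 (-0.05 to 0.53). The sort was for CD4+ cells, yet 121 intestinal cells held UMIs of both *Cd8a* and *Cd8b1*, the chains of the CD8 coreceptor, and 0 splenic cells did. These 121 cells had 280 CPM of *Il10* (240 to 324), against 666 CPM (638 to 695) in the 825 intestinal cells with a *Cd4* and no CD8 UMI, a log2 ratio of -1.25 (-1.48 to -1.03). Intestinal cells in G2/M, which were otherwise left out, had 399 CPM (340 to 467) against 602 CPM (580 to 624) in G1. In the spleen the values were 448 CPM (416 to 481) in G2/M and 482 CPM (467 to 497) in G1. Cells in S, which were kept, had 315 CPM (208 to 458) in the small intestine, from 14 cells. The 54 splenic cells in S had 379 CPM (331 to 433). Their log2 ratios over G1 were -0.93 (-1.54 to -0.39) and -0.35 (-0.55 to -0.15).

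Genes that went with the *Il10* count of a cell were sought within each tissue. Cells with 5 or more *Il10* UMIs at the deposited depth were compared with cells with 0. The UMIs of the other genes were summed at equal depth. Before thinning, the cells with 5 or more were deeper, with medians of 4356.5 against 3313 UMIs in the small intestine. In the spleen the medians were 7791 and 4460. Thinning does not undo this difference in which cells were grouped. A gene was counted when its CPM differed at least 2-fold, a rule of size and not a test. In the small intestine 269 of 6249 genes (4.30%) were higher and 265 (4.24%) lower with 5 or more *Il10* UMIs, and the median log2 ratio of all genes was 0.05. In the spleen 489 of 7265 genes (6.73%) were higher and 328 (4.51%) lower, with a median of 0.14. Many of these genes rested on few UMIs. Among genes whose mean count reached 0.2, only 29 were higher and 12 lower of 2614 in the small intestine, against 159 and 60 of 3768 in the spleen. Of the 5974 genes tested in both tissues, 42 were higher in both, among 251 in the small intestine, against 301 in the spleen, 18 were lower in both, among 220 and 222, and 24 went in opposite directions.

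The genes most like *Il10* over single cells included co-inhibitory and costimulatory receptors. Over the 1149 intestinal and 1438 splenic cells at equal depth, the rank correlation (Spearman's rho) with *Il10* was highest for *Ctla4*, a co-inhibitory receptor, with 0.25 in the small intestine, against 0.37 in the spleen. It was followed by *Tnfrsf4*, the costimulatory receptor OX40 (0.23 and 0.27), the kinase *Pim1* (0.23 and 0.18), the granule proteoglycan *Srgn* (0.21 and 0.19), the co-inhibitory receptor *Lag3* (0.17 and 0.22), *Cd53* (0.20 and 0.15), the costimulatory receptor *Icos* (0.13 and 0.21), the transcription factor *Maf* (0.17 and 0.15), the protease *Furin* (0.18 and 0.13) and *Sub1* (0.08 and 0.23). The median over 5974 genes was 0.01, and 46 genes had a mean rho over 0.1. These correlations are weak, are given as a description, and share the library and the base depth of the cells. Within graph clusters, averaged by cell number, rho was lower, at 0.18 and 0.19 for *Ctla4*, 0.08 and 0.13 for *Tnfrsf4* and 0.10 and 0.07 for *Maf*. No such order is given for *eGFP*, which had 4 UMIs in all at equal depth.

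*Ctla4* followed the *Il10* count step by step. In the spleen it was found in 51.9% of cells with 0 *Il10* UMIs, 65.3% with 1, 78.5% with 2 to 4 and 93.9% with 5 or more. Among intestinal cells the same shares were 75.3%, 80.0%, 89.1% and 93.7%. *Tnfrsf4* went from 68.5% to 97.9% of splenic and from 48.1% to 77.5% of intestinal cells. Both genes were thus most frequent among the cells with the most *Il10* UMIs in either tissue. The log2 ratio of their CPM between 5 or more and 0 *Il10* UMIs was 0.91 (0.76 to 1.05) in the small intestine, against 1.85 (1.72 to 1.98) in the spleen for *Ctla4*, and 1.28 (1.10 to 1.46) and 1.07 (0.97 to 1.16) for *Tnfrsf4*.

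Part of each ratio went with the makeup of the cells by cluster. When the cells with 0 *Il10* UMIs were weighted so that each graph cluster had the share it has among the cells with 5 or more, the log2 ratio of *Ctla4* was 0.58 in the small intestine, against 0.87 in the spleen, and that of *Tnfrsf4* 0.73 and 0.56. *Lag3*, at 0.71 and 0.77 without weighting, had 0.20 and 0.41, and *Maf*, at 0.73 and 0.53, had 0.42 and 0.32. In the spleen *Prdm1* had 0.92 in place of 1.81, *Ccr7* -1.60 in place of -3.31 and *Tcf7* -1.28 in place of -2.27. Intestinal *Cd8a* had -0.31 in place of -2.19. The direction of these genes was kept after weighting, at a smaller size. The clusters were made from variable genes, and *Ctla4*, *Tnfrsf4*, *Lag3*, *Maf*, *Ccr7*, *Tcf7* and *Cd8a* are among the genes that lead them. Weighting to clusters can thus take out part of a gene's own difference. Clusters made without these genes were not tried. The same limit holds for the weighted values of the groups of genes below.

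**Figure D4:**
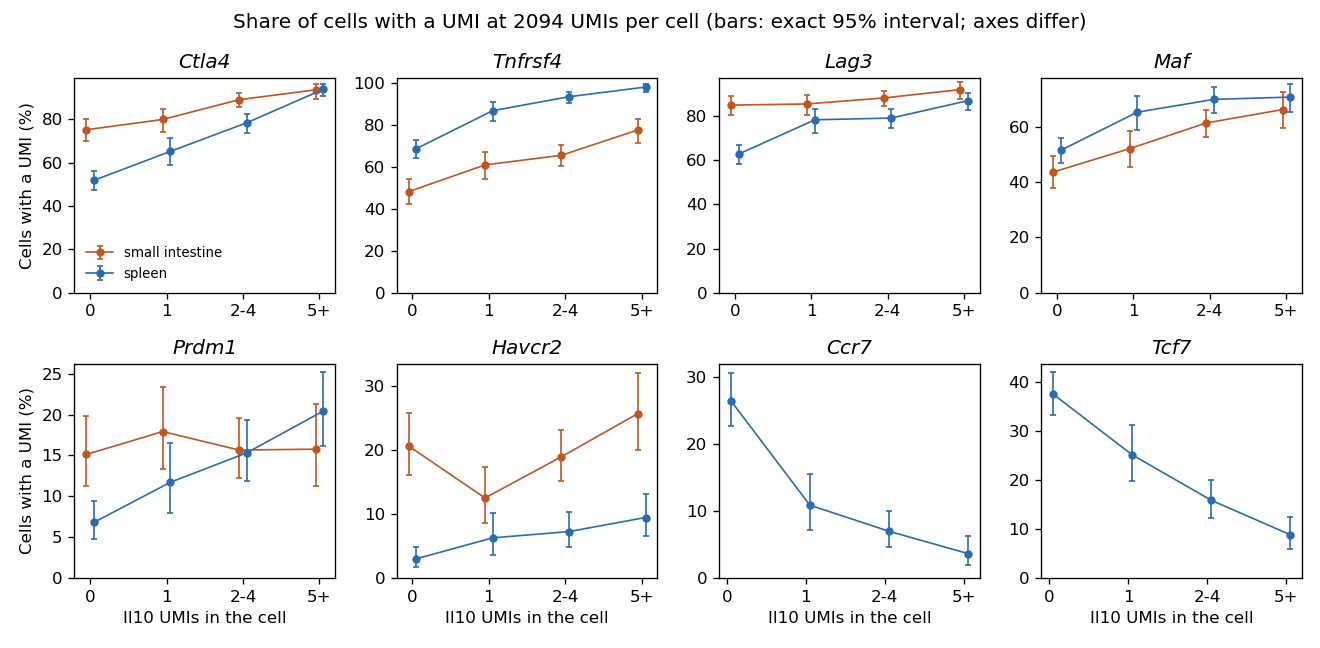
Share of cells with a UMI (%, y axes differ) of 8 genes at 2094 UMIs per cell, in the small intestine and spleen, with exact 95% intervals. The x axes give the *Il10* UMIs of the cell at the deposited depth. *Ccr7* and *Tcf7* were under the mean count of 0.05 in the small intestine and are shown for the spleen only, where they go down from 26.5% to 3.66% and from 37.5% to 8.84%.

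The transcription factors and signalling proteins known to act on *Il10* come first. Their counts, and those of the groups that follow, stand beside the shares over all genes, 4.30% higher and 4.24% lower in intestinal and 6.73% higher and 4.51% lower in splenic cells. In the small intestine 0 of the 41 genes tested were higher and 0 lower, with a median log2 ratio of 0.14. In the spleen 5 of 44 were higher, among them *Prdm1*, *Nfil3*, *Egr1* and *Crem*. Another 4 were lower (*Jun*, *Fos*, *Fosb*, *Bach2*), and the median was 0.02. Weighting to clusters left 3 higher and 3 lower in the spleen, with a median of -0.02. Weighting to depth gave 8 higher and 4 lower there, with a median of 0.38. In the small intestine 0 were higher with weighting to clusters and 2 with weighting to depth, and 0 were lower. *Maf*, which encodes c-Maf, went from 43.6% of intestinal cells with 0 *Il10* UMIs to 66.2% with 5 or more, and from 51.5% to 70.7% of splenic cells. Its log2 ratios were 0.73 (0.48 to 0.98) and 0.53 (0.35 to 0.71). *Prdm1*, which encodes Blimp-1, was found in 15.1%, 17.9%, 15.7% and 15.8% of intestinal cells with 0, 1, 2 to 4 and 5 or more *Il10* UMIs. In the spleen the shares were 6.81%, 11.7%, 15.3% and 20.4%. Its log2 ratios were 0.05 (-0.60 to 0.70) in intestinal and 1.81 (1.23 to 2.42) in splenic cells. The intervals did not overlap, but whether the tissues differ was not tested.

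The other regulators of this group are given by their log2 ratios between 5 or more and 0 *Il10* UMIs, small intestine first. *Nfil3*, a bZIP factor, had 0.52 (-0.05 to 1.09) and 1.23 (0.71 to 1.75). *Batf* and *Irf4*, which bind DNA together, had 0.14 (-0.26 to 0.53) and 0.53 (0.30 to 0.76), and 0.39 (-0.89 to 1.67) and 0.49 (-0.03 to 1.02). *Ahr*, the aryl hydrocarbon receptor, had -0.13 (-0.97 to 0.68) and 0.25 (-0.34 to 0.83). *Bhlhe40*, known as a repressor of *Il10*, had 0.35 (0.00 to 0.70) and 0.03 (-0.50 to 0.55). *Jun*, a subunit of AP-1, went down from 27.3% to 12.8% of splenic cells, with a log2 ratio of -1.68 (-2.16 to -1.22).

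Of the co-inhibitory receptors and TR1 surface genes, 0 of 13 differed 2-fold in the small intestine, with a median log2 ratio of 0.23. In the spleen 4 of 13 were higher, among them *Havcr2*, *Ctla4* and *Lilr4b*, and 1 was lower (*Cd160*), with a median of 0.77. Weighting to clusters left 2 higher and 1 lower, with a median of -0.03, and weighting to depth gave 9 higher and 1 lower, with a median of 1.32. *Lag3* was frequent in either tissue and went from 84.9% to 91.9% of intestinal cells and from 62.7% to 86.9% of splenic cells, with log2 ratios of 0.71 (0.60 to 0.82) and 0.77 (0.64 to 0.90). *Havcr2*, which encodes TIM-3, was found in 20.6%, 12.5%, 18.9% and 25.7% of intestinal cells with 0, 1, 2 to 4 and 5 or more *Il10* UMIs. Its splenic shares were 3.01%, 6.28%, 7.26% and 9.45%, and the log2 ratios were 0.23 (-0.26 to 0.72) and 1.61 (0.82 to 2.44). *Pdcd1*, which encodes PD-1, had log2 ratios of -0.23 (-0.83 to 0.36) and 0.06 (-0.31 to 0.41).

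Genes of naive and recirculating T cells were mostly lower with *Il10* in the spleen. There 0 of 12 were at least 2-fold higher and 8 lower with 5 or more *Il10* UMIs, with a median log2 ratio of -1.46. Weighting to clusters left 1 higher and 3 lower, with a median of -0.55, and weighting to depth 0 higher and 5 lower, with a median of -0.85. *Ccr7*, the receptor that guides T cells into lymphoid tissue, was found in 26.5%, 10.9%, 6.99% and 3.66% of the cells in the order of *Il10*, with a log2 ratio of -3.31 (-4.18 to -2.56). *Tcf7*, which encodes TCF-1, was found in 37.5%, 25.1%, 15.9% and 8.84%, with a log2 ratio of -2.27 (-2.81 to -1.77). *Dapl1* had a log2 ratio of -3.55 (-4.63 to -2.64), which was -0.23 after weighting to clusters. Of the 6 genes of this group tested in the small intestine, 0 were higher and 2 lower (*Klf2*, *Lef1*), with a median of -0.72, and both turned to higher when cells were thinned to 4188 UMIs, at 2.59 and 0.27.

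Genes of regulatory T cells showed 6 of 11 higher and 0 lower in the spleen, with a median log2 ratio of 1.02. *Foxp3* was found in 4.01%, 7.11%, 11.02% and 14.0% of splenic cells at equal depth, with a log2 ratio of 1.74 (1.04 to 2.47). *Il2ra*, the alpha chain of the IL-2 receptor, had 1.49 (1.10 to 1.89) and *Capg* 1.53 (1.27 to 1.80). After weighting to clusters, 0 of the 11 genes were 2-fold higher, with a median of -0.01, and *Foxp3* had 0.60. Weighting to depth gave 8 higher and 0 lower, with a median of 1.31. Without cells that had a *Foxp3* UMI, 3 of the 7 genes then tested were higher and 0 lower, with a median of 0.92. In the small intestine 0 of the 6 genes tested were higher or lower, and *Foxp3*, at 38 UMIs in the kept cells, was under the mean count of 0.05.

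Proliferation genes were the group with the largest number of higher members in the spleen, where 11 of 15 were higher and 0 lower, with a median log2 ratio of 1.27. *Rrm2*, a subunit of ribonucleotide reductase, had 1.86 (1.34 to 2.40), *Tyms*, thymidylate synthase, 1.54 (0.90 to 2.20) and *Birc5*, survivin, 1.38 (0.91 to 1.86). These cells were also the deepest, with a median of 7791 UMIs, and 1 of 15 was higher when the cells with 0 *Il10* UMIs were weighted to their depth, and 0 when weighted to their clusters. Of the 328 splenic cells with 5 or more *Il10* UMIs, 112 lay in cluster 4, which held 14.85% of the kept splenic cells. Cluster 4 was also the deepest. At equal depth 56.7% of its cells had an *Il10* UMI, against 62.7% in cluster 2 and 67.0% in cluster 5. With cells grouped by their *Il10* UMIs at equal depth, which left 51 splenic cells with 5 or more, *Rrm2* had -0.09, *Tyms* -0.12 and *Birc5* -0.0014. Of the 11 tested in the small intestine 4 were higher and 1 lower, with a median of 0.45.

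Among other cytokines and chemokines, 5 of 15 were higher and 0 lower in the small intestine, with a median log2 ratio of 0.87, and 7 higher and 2 lower of 15 in the spleen, with a median of 0.49. The chemokines *Ccl3* and *Ccl4* were higher in either tissue. *Ccl4* had 857 and 2177 CPM in intestinal cells with 0 and with 5 or more *Il10* UMIs, a log2 ratio of 1.35 (1.19 to 1.501), and 421 and 1711 CPM in splenic ones, a log2 ratio of 2.02 (1.86 to 2.18). *Ccl3* had log2 ratios of 1.14 (0.79 to 1.49) and 1.90 (1.55 to 2.27), the second of which was -0.47 with cells grouped at equal depth. *Ifng*, the gene of interferon gamma, was found in 36.1%, 43.8%, 40.7% and 51.8% of intestinal and in 6.01%, 8.79%, 11.8% and 8.84% of splenic cells, with log2 ratios of 0.87 (0.59 to 1.15) and 1.09 (0.44 to 1.76). *Il17f* reached a log2 ratio of 6.50 (3.97 to 11.8) in the small intestine, but from only 2.25% of the cells with 5 or more *Il10* UMIs, and it was -2.71 with cells grouped at equal depth.

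Granule genes differed between the tissues in level before any relation to *Il10*. *Gzma*, granzyme A, had 26763 CPM in intestinal cells with 0 *Il10* UMIs and 23148 CPM with 5 or more, a log2 ratio of -0.21 (-0.24 to -0.17). Splenic cells had 34.5 and 67.0 CPM, a log2 ratio of 0.96 (0.30 to 1.63). After weighting to clusters these ratios were 0.07 and -0.05. *Gzmb*, granzyme B, was found in 93.5% and 97.7% of these intestinal cells and in 15.8% and 43.9% of the splenic ones, with log2 ratios of 0.18 (0.13 to 0.23) and 1.11 (0.96 to 1.26). The splenic ratio of *Gzmb* was -0.06 after weighting to clusters. Over the group, 0 of 8 differed 2-fold in the small intestine, with a median log2 ratio of 0.17. In the spleen 2 of 7 were higher, with a median of 0.96. They were *Gzmb* and *Lgals1*, a galectin that was listed with the granule genes but is not a granule protein. Weighting to clusters left 0 of 7 higher, with a median of -0.05, and weighting to depth 2, with a median of 0.76.

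**Figure D5:**
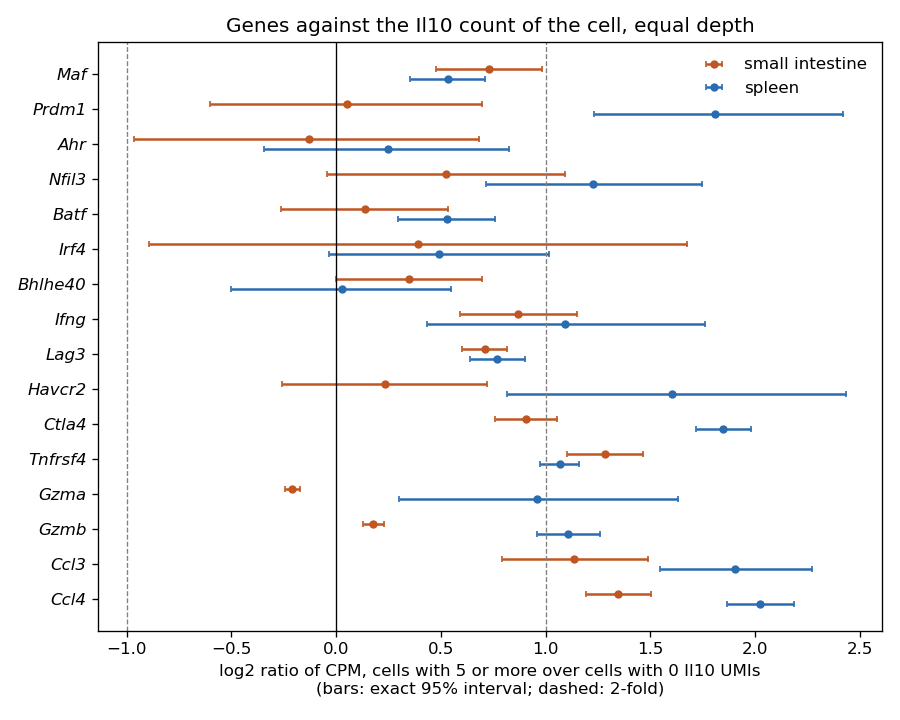
Log2 ratio of CPM between cells with 5 or more and cells with 0 *Il10* UMIs (x axis) for 16 genes (y axis) at equal depth, in the small intestine and spleen, with exact 95% intervals and dashed lines at 2-fold. Cells were grouped by their *Il10* UMIs at the deposited depth. *Lag3* lies at 0.71 and 0.77, whereas *Prdm1* lies at 0.05 and 1.81 and *Gzmb* at 0.18 and 1.11.

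The CD8 genes were lower with *Il10* in the small intestine, with 0 of 4 higher and 2 lower. *Cd8a* was found in 22.0%, 11.2%, 10.9% and 5.41% of intestinal cells in the order of *Il10*, with a log2 ratio of -2.19 (-2.81 to -1.62), and *Cd8b1* in 16.5%, 9.17%, 9.60% and 4.95%, with -2.22 (-3.003 to -1.51). *Cd4* had log2 ratios of 0.13 (-0.16 to 0.41) and 0.12 (-0.19 to 0.42). Receptors upstream of *Il10* had 1 of 15 higher in the small intestine, *Il18r1*, the receptor of IL-18, with 1.19 (0.55 to 1.84), and 2 higher and 2 lower of 16 in the spleen. Of the IL-10 receptor and its signalling genes, 1 of 8 was higher in the small intestine (*Il10ra*, in 2.06% and 4.95% of cells) and 0 of 8 differed in the spleen, where *Socs3*, a target of STAT3, had -0.97 (-1.26 to -0.68). Of the neighbours of *Il10* on chromosome 1, 1 of the 3 tested in the small intestine was higher and 0 lower. In the spleen 0 of 2 differed 2-fold. *Mapkapk2*, a kinase, had 0.39 (-0.42 to 1.20) and 0.39 (-0.16 to 0.93).

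The markers of other cells were summed in each group of *Il10*. The 6 B cell and plasma cell rows summed to between 5.49 and 32.5 CPM in the small intestine, highest with 0 *Il10* UMIs, and to between 4.99 and 11.5 CPM in the spleen. The 11 myeloid rows summed to between 205 and 223 CPM and between 155 and 199 CPM, and 2 of them were tested. *Cst3*, which T cells also express, had log2 ratios of -0.38 (-0.91 to 0.13) and 0.48 (0.12 to 0.84). *Cd68* had 0.70 (-0.04 to 1.46) and 2.19 (0.47 to 4.28), the latter from 30 UMIs, so that 0 of 2 were 2-fold higher in the small intestine and 1 of 2 in the spleen. Their part in the results was not tested. The 13 epithelial rows summed to between 45.7 and 58.4 CPM and between 30.7 and 36.1 CPM. The 5 erythroid rows had 0 UMIs in the small intestine and at most 0.769 CPM in the spleen. Th17 genes had 2 of 5 higher in the small intestine (*Il17a*, *Il17f*), and 2 higher and 1 lower of 4 in the spleen. Tfh genes had 0 of 6 and, in the spleen, 0 higher and 1 lower of 7. T-cell receptor response genes had 2 higher of 16 and 3 higher of 15, and 0 lower. CD4 helper genes had 0 of 3 in the small intestine and 1 lower of 3 in the spleen. Of the innate lymphoid markers 1 was tested in each tissue, and it did not differ 2-fold, at 0.83 (0.09 to 1.59) and -0.44. In the small intestine it was *Gata3*, which T cells also express and which is counted among the regulators above. It does not tell innate lymphoid cells apart.

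The 10 genes with the highest ratios, among those whose share of cells moved in 1 direction over the groups of *Il10*, had few UMIs. In the small intestine they were *Trpm4*, *Polg2*, *Zbtb21*, *S100a4*, *Galt*, *Gm13012*, *AU040320*, *Utp18*, *Pstk* and *Fam45a*, with 29 to 62 UMIs each at equal depth, and in the spleen *Cdc20*, *1500009L16Rik*, *Casc5*, *Trip13*, *Hlx*, *Poc1a*, *Plk1*, *Kif20a*, *Cd68* and *Zcchc18*, with 13 to 61. The 10 lowest were *Gm28875*, *Rprd1b*, *Acss2*, *Stambp*, *Klrc2*, *Rsrc1*, *Ncf1*, *Map3k8*, *Mrps35* and *Cd8a* in the small intestine and *Igfbp4*, *Cldn10*, *Cnn3*, *Dapl1*, *Ccr7*, *Fam101b*, *Bach2*, *Gm11110*, *Bbc3* and *Mlycd* in the spleen. Among genes of this kind, moving in 1 direction, whose mean count also reached 0.2, a limit set for the naming after the data had been seen, the highest ratios in the small intestine were those of *Ccl4*, *Tnfrsf4* and *Me2* and the lowest those of *Cd8a* and *Cd7*, at -1.49 (-1.78 to -1.20). In the spleen the highest were *Hells*, a chromatin remodeller of dividing cells, at 2.12 (1.21 to 3.11), *Snx9* at 2.07 (1.33 to 2.87) and *Ccl4*, and the lowest *Dapl1*, *Ccr7* and *Pdcd4*, which restrains translation, at -2.62 (-3.20 to -2.08).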

How the data were processed

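The UMI counts were used as deposited by the authors, who trimmed the reads, aligned them to Mm10 with CellRanger and counted UMIs, with no normalization. The submitters' processing notes list mm8 beside mm10, and Trimmomatic and Cell Ranger without a version. Cells whose log UMIs or log genes fell over 3 median absolute deviations below the median, or whose mitochondrial share lay as far above it (135 and 90 in the small intestine and spleen), and then cells in G2/M by cyclone (62 and 180) were left out. Graph clusters came from a shared nearest neighbour graph (10 neighbours, 20 principal components, Louvain) on variable genes without *Il10* and *eGFP*. Scrublet called 4 doublets per library, under 0.5% of the barcodes; they were kept, and left out as an alternative. R 4.3.3, scran 1.30.0, scuttle 1.12.0, bluster 1.12.0, Python 3.11.15, scipy 1.17.1 and scanpy 1.11.5 were used.

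The interval of a CPM ratio is exact (95%, binomial, conditional on the summed UMIs). Genes were compared at a mean count of at least 0.05. The genes named are the 10 highest and 10 lowest ratios per tissue among genes whose share moves in 1 direction, the 10 highest correlations with *Il10*, the leading genes of clusters, 11 regulators and effectors, and of each list at most 6 members, here those with at least 100 UMIs at equal depth, a limit set after the data were seen. A *Foxp3* ratio in the small intestine and an order of genes for *eGFP* could not be given for lack of UMIs. The members and gene lists were chosen with earlier results of these data known. The comparison of genes was tested on simulated data, in which all cells of a group shared the same profile and depth. Real cells differ in both, so this test does not show how well the intervals hold for them. Alternatives were other filters on cells and genes, other depths, seeds, clusters and groups of *Il10*, and weighting by depth or cluster. Gene positions are from GENCODE on GRCm38. Other data of the study (human, bulk, SMART-seq2) were not used here, and some genes are not reported here.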

Additional observations from a re-analysis of the deposited data

Results flagged for a closer look

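Among the rows outside the comparisons, *mRFP*, the Foxp3 reporter, had 153 UMIs over all barcodes of the spleen and 10 in the small intestine, and *TurboFP635*, which the mice are not said to carry, had 7 UMIs in the small intestine. These counts are above 3 UMIs, the limit that a count of 0 allows. *TurboFP635* lay in 6 intestinal cells, 4 of them with an *Il10* UMI, which 70.0% of all intestinal barcodes had. In kept cells it had 5 UMIs, 3 of them in 2 cells with 5 or more *Il10* UMIs. The cells with 5 or more held 21.7% of all UMIs of the kept intestinal cells.

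*Gzma* moved in opposite directions with *Il10* in the tissues. Its log2 ratio between cells with 5 or more and cells with 0 *Il10* UMIs was -0.21 in the small intestine, against 0.96 in the spleen. Both intervals leave out 0, but they cover counting error only. With 1 library per tissue the difference was not tested. After weighting to clusters both signs turned, to 0.07 and -0.05. The splenic value rests on 175 *Gzma* UMIs, against 58909 in the small intestine.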

How the results depend on the processing

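With 1 library per tissue no replicate could be left out, and every interval covers counting error only. No paired analysis was possible because each tissue has a single library. The log2 ratio of *Il10* between the tissues lay between 0.29 and 0.49 over all settings. It was outside its interval without cells that had a *Foxp3* UMI (0.49), without cells that had a CD8 UMI (0.49) and with pooled size factors (0.42). The difference of detected shares lay between 12.5 and 18.6 percentage points, the latter without CD8 cells. The log2 ratio of the highest over the lowest cluster in the small intestine was 1.14 without CD8 cells and 1.08 with 20 neighbours, and in the spleen 2.55 without the 3 doublets. The splenic difference of *eGFP* between cells with 5 or more and 0 *Il10* UMIs was 1.83 percentage points with cells grouped at equal depth. No setting took a value of *eGFP* between the tissues out of its interval. These intervals are wide, resting on at most 6 and 7 *eGFP* UMIs in kept cells, so this says little about stability.

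The counts of genes past 2-fold followed the filter on low genes. Higher and lower genes numbered 29 and 12 in the small intestine and 159 and 60 in the spleen at a mean of 0.2, 1017 and 1147, and 1199 and 1015, with 10 UMIs as the only limit, and 92 and 94, and 283 and 150, without thinning. Grouping at equal depth, which has fewer cells with 5 or more, gave 409 higher and 900 lower in the small intestine and 1142 lower in the spleen. At 4188 UMIs 472 were higher in the small intestine and 203 lower in the spleen.

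Of 85 named ratios past 2-fold, between 64 and 69 kept direction and size with G2/M cells kept, without doublets, without thinning, without the quality filter or with another seed, 73 with weighting to depth, 53 with weighting to clusters, 70 of 82 without *Foxp3* cells, 62 of 81 without CD8 cells, 53 with grouping at equal depth and 57 at 4188 UMIs. Leaving out or adding cells also redraws the random thinning of other cells, as another seed does. The cause of the turns in direction that follow was not tested. In the small intestine *Pstk* turned to -0.70 without the quality filter and -0.020 without CD8 cells, *Mrps35* to 0.018 without doublets, and at 4188 UMIs *Fam45a* turned to -0.051, *Gm28875* to 0.078, *Klf2* to 2.59 and *Lef1* to 0.27. With grouping at equal depth *AU040320* had -0.99, *Il17a* -0.031, *Il17f* -2.71, *Lef1* 0.51, *Polg2* -0.49, *Pstk* -1.07, *S100a4* -1.15, *Stmn1* -1.12 and *Utp18* -1.29. In the spleen *Zcchc18* had -0.17 with G2/M cells kept and -0.98 with another seed, *Plk1* -0.98 with a further seed, *Gm11110* 0.29 without doublets and *Kif20a* -0.43 without *Foxp3* cells. With grouping at equal depth *Birc5* had -0.0014, *Ccl3* -0.47, *Kif20a* -0.59, *Lef1* 0.022, *Rrm2* -0.086, *Snx9* -0.88 and *Tyms* -0.12. Weighting to depth gave 0.79 for *Il17f*, and weighting to clusters -0.40 for *Birc5*, 0.66 for *Cnn3* and -0.061 for *Gzmb*.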

Other observations

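At the other end of the order, the genes least like *Il10* over single cells were those of ribosomal proteins, singled out after their values were seen. Among the lowest rank correlations at equal depth were those of *Rps29* (-0.11 in intestinal and -0.29 in splenic cells), *Rpl37a* (-0.12 and -0.25), *Rps18* (-0.13 and -0.22) and *Rpl13* (-0.10 and -0.25). Of the 53 genes with a mean rho under -0.1, 48 encode ribosomal proteins, and the mean rho was below 0 for 80 of the 81 ribosomal protein genes tested. Within clusters the values were smaller, at -0.07 and -0.10 for *Rps29* and -0.09 and -0.08 for *Rpl37a*. As a share of all UMIs, ribosomal protein genes made up 20.5%, 20.2%, 19.4% and 18.6% of intestinal cells with 0, 1, 2 to 4 and 5 or more *Il10* UMIs, and 31.0%, 27.5%, 25.4% and 24.0% of splenic cells. Depth rose over the same groups, with splenic medians of 4460, 4916, 5712 and 7791 UMIs, and its part in this pattern was not tested.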
